A study of Homo sapiens with 4 samples.

Results

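The genes described here are 10 markers and regulators of the epithelial-mesenchymal transition (EMT), named by symbol and looked up by Entrez identifier among the 16813 genes listed in at least 1 library. They are *CDH1*, *EPCAM* and *ESRP1*, which mark epithelial cells, *CDH2* and *VIM*, which mark mesenchymal cells, and the transcription factor genes *SNAI1*, *SNAI2*, *ZEB1*, *ZEB2* and *TWIST1*. Their RNA was measured in PC9 cells, an established lung adenocarcinoma line that carries mutant *EGFR* and served as the control, and in PC9OR cells, a derivative of PC9 that is resistant to the EGFR inhibitor osimertinib. The labels give both lines the genotype WT and the same medium, RPMI with fetal bovine serum. Each line was sequenced as 2 biological replicates, which makes 4 libraries. PC9OR is a single resistant line, so resistance and any other difference between these cultures cannot be told apart, and whether it is a clone, and whether drug was present at harvest, is not given in the sources used here.

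EMT is a change of state in which epithelial cells loosen their cell-cell junctions and take on a motile, mesenchymal form. The SNAI, ZEB and TWIST factors bind E-box motifs, and SNAI and ZEB factors repress *CDH1*, the gene of the adherens junction protein E-cadherin. In lung adenocarcinoma, EMT is one of the cell states that have been described in tumors that no longer respond to EGFR inhibitors.

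The expected counts, which are estimated reads per gene, summed to between 23201307 and 32203998 a library. The limit that a count of 0 allows was set at 3 counts, although lower values are listed, and corresponded to between 0.0936 and 0.128 CPM (counts scaled to a common library size after TMM normalization). It covers counting error only. Of the 13148 genes that passed the filter on low counts, 36.4% differed between the lines at an adjusted p under 0.05, with 15.6% higher and 20.8% lower in PC9OR cells. Unless another test or filter is named, adjusted p-values are Benjamini-Hochberg values over these 13148 genes, from the edgeR quasi-likelihood (QL) test. They weigh the difference between the lines against the spread between the replicates deposited. The study states a stricter threshold, an adjusted p under 0.001 together with a change over 2-fold. By that threshold the edgeR QL test called 0 genes, against 6653 at an unadjusted p under 0.05 alone, and the DESeq2 Wald test called 1735. The number of genes called higher ran from 540 to 3984 when 1 library was left out, with 580 without PC9OR replicate 1, 540 without PC9OR replicate 2 and 3984 without PC9 replicate 2. The keratin genes of simple epithelia were abundant in both lines, with *KRT8* at 1732 ± 208 CPM (SD, n = 2) in PC9 and 4207 ± 26.3 CPM (SD, n = 2) in PC9OR cells. Of the 5 lung adenocarcinoma markers tested, 4 rose, *KRT18* (1.13 on the log2 scale) and 3 other keratin genes, and *EGFR* fell (log2 fold change -1.46). Markers of differentiated lung epithelium were near 0: *SFTPB* was listed in no library, and *NKX2-1* had 0 counts in both PC9 libraries and 4 and 12 in the PC9OR libraries. The 10 fibroblast markers together reached between 1.78 and 2.05 CPM in every library, with 1 or 2 of them at 0 in each. Only 3 of them were tested, *COL1A2* (log2 fold change -0.28) and *COL3A1* (0.10) among them, and 0 rose and 0 fell, also at an unadjusted p under 0.05 and by the DESeq2 Wald test.

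Of the 10 EMT genes, 1 rose in PC9OR cells (*TWIST1*), 2 fell (*CDH1* and *SNAI2*), 5 did not pass the test and 2 were too low to be tested. *TWIST1* passed the filter on low counts through its PC9OR libraries, where it is high, so its rise is given as a description. The 3 called are 37.5% of the 8 tested, beside 36.4% of all genes tested, so the EMT genes as a group were called about as often as any gene. With offsets for transcript length, described further on, the same 3 genes were called, beside 38.1% of all genes. A call together with a change over 2-fold was found for *TWIST1*, beside 6.13% of all genes called higher in that way, and for *CDH1*, beside 11.6% called lower. The epithelial marker *CDH1* was lower by more than 2-fold. By contrast, the epithelial markers *EPCAM* and *ESRP1* and the mesenchymal marker *VIM* overlapped between the lines and were not called. The tested EMT genes had a median log2 fold change of -0.21, against 0.01 over all genes tested. In CPM, both PC9OR libraries lay above both PC9 libraries for 1 of the 8 genes and below them for 3, against 39.6% and 38.2% of all genes tested. In bulk RNA, fewer cells expressing a gene and less RNA per cell cannot be told apart.

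**Figure D1:**
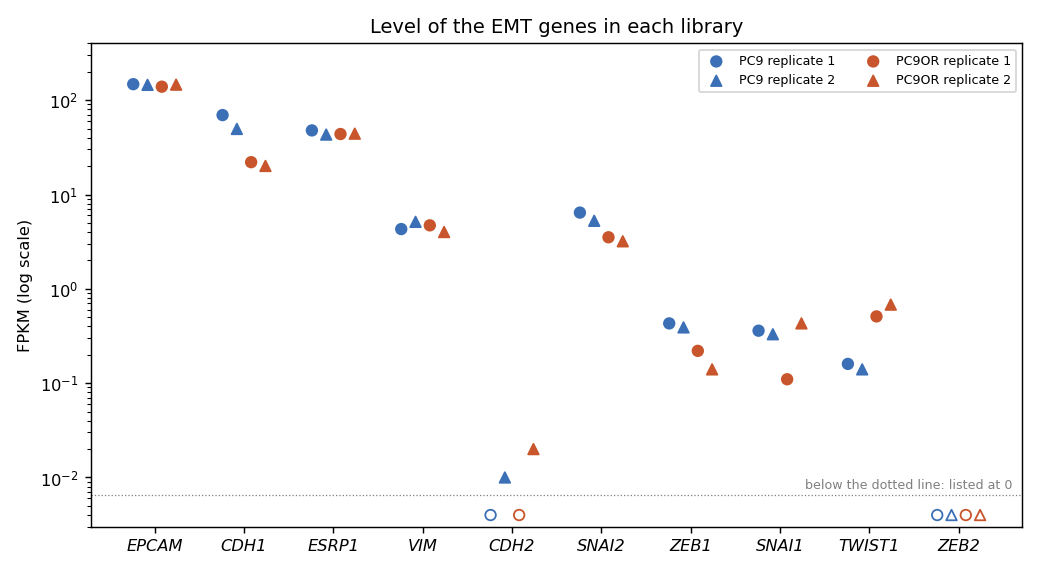
FPKM of the 10 EMT genes on a log axis, with 1 point for each library, PC9 in blue, PC9OR in orange, circles for replicate 1 and triangles for replicate 2. Open symbols under the dotted line are genes listed at 0. *EPCAM* and *ESRP1* lie level across the 4 libraries, *CDH1* and *SNAI2* are lower in both PC9OR libraries, and *TWIST1* is higher in both.

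*CDH1* encodes E-cadherin, the calcium-dependent adhesion molecule of the epithelial adherens junction (Entrez 999, chr16:68771195-68869440, GRCh37, plus strand). It had 463 and 338 CPM in PC9 replicates 1 and 2, and 151 and 140 CPM in PC9OR replicates 1 and 2. Both PC9OR libraries were thus far below both PC9 libraries, and the PC9 replicates differed from each other more than the PC9OR replicates did. The means were 400.4 ± 88.5 CPM (SD, n = 2) and 145 ± 7.62 CPM (SD, n = 2), so that PC9OR cells kept 36.3% of the PC9 level. The log2 fold change was -1.46 (SE 0.181, 95% confidence interval -1.93 to -0.999, edgeR QL adjusted p = 0.00814). The decrease stayed past the threshold without any 1 library, with log2 fold changes from -1.69 to -1.22 and adjusted p from 0.000465 to 0.0184 in the edgeR QL test, and in the DESeq2 Wald test the adjusted p was 2.9e-12.

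*EPCAM* encodes the epithelial cell adhesion molecule, a surface glycoprotein of simple epithelia and many carcinomas. It had 334 CPM in each PC9 library, and 319 and 343 CPM in the PC9OR libraries. The 2 PC9OR values lay on either side of the PC9 values. The log2 fold change was -0.01, with a 95% confidence interval from -0.28 to 0.26 (edgeR QL adjusted p = 0.931), an interval that does not reach the log2 fold change of *CDH1*.

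*ESRP1* encodes an RNA-binding protein that directs epithelial patterns of splicing, and its loss is a feature of EMT. It had 242 and 225 CPM in the PC9 libraries and 228 and 234 CPM in the PC9OR libraries, and the groups overlapped. Its log2 fold change was -0.02 (95% confidence interval -0.29 to 0.25, edgeR QL adjusted p = 0.912).

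*VIM* encodes vimentin, the intermediate filament protein of mesenchymal cells. It had 12.3 and 14.9 CPM in the PC9 libraries and 13.7 and 11.9 CPM in the PC9OR libraries. The highest and the lowest value came from different lines and the groups overlapped, with a log2 fold change of -0.09 (95% confidence interval -0.57 to 0.39, edgeR QL adjusted p = 0.730). A lncRNA gene on the opposite strand, *VIM-AS1*, chosen after its values were seen, had 2.43 and 2.91 CPM in PC9 and 1.12 and 1.97 CPM in PC9OR cells. Its log2 fold change of -0.79 did not pass the test (edgeR QL adjusted p = 0.175). The kit marks strand, but whether the counting used strand is not given in the sources used here, so reads shared by such a pair could be split between them.

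*CDH2* encodes N-cadherin, the cadherin that replaces E-cadherin in many mesenchymal cells. It had 0 and 2 counts in the PC9 libraries and 0 and 3 counts in the PC9OR libraries, so no library passed 3 counts, the limit that a count of 0 allows, and no fold change was computed. A gain of *CDH2* RNA in PC9OR cells was not detectable at this depth, where 3 counts correspond to at most 0.0938 CPM in a PC9OR library.

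**Figure D2:**
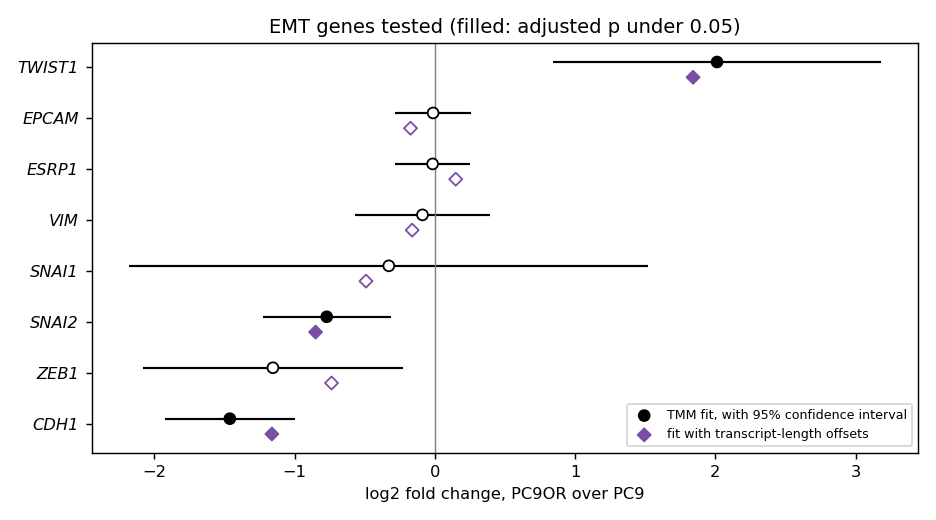
Log2 fold change of PC9OR over PC9 for the 8 EMT genes tested. Circles with bars are the edgeR QL fit with its 95% confidence interval, diamonds are the fit with offsets for transcript length, and filled symbols have an adjusted p under 0.05. *CDH1*, *SNAI2* and *TWIST1* are filled in both fits, and the interval of *SNAI1* is the widest, from -2.18 to 1.52.

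*SNAI2* encodes SLUG, a zinc finger repressor of *CDH1* (Entrez 6591, chr8:49830157-49834299, GRCh37, minus strand). It was the most abundant of the 5 transcription factor genes in every library. It had 18.1 and 15.1 CPM in the PC9 libraries and 10.1 and 9.35 CPM in the PC9OR libraries, with no overlap. Like *CDH1*, it was lower in both PC9OR libraries, at 58.6% of the PC9 level, with a log2 fold change of -0.77 (SE 0.179, 95% confidence interval -1.23 to -0.31, edgeR QL adjusted p = 0.0287). The call rested on having both PC9OR libraries. Without PC9OR replicate 1 the log2 fold change was -0.83 (edgeR QL adjusted p = 0.143), and without PC9OR replicate 2 it was -0.72 (edgeR QL adjusted p = 0.200).

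*TWIST1* encodes a basic helix-loop-helix factor of mesoderm and neural crest that promotes EMT in many carcinomas (Entrez 7291). It had 0.341 and 0.312 CPM in the PC9 libraries, which were 8 and 9 counts, and 1.12 and 1.53 CPM in the PC9OR libraries, which were 36 and 49 counts. The PC9OR values were thus all higher than the PC9 values, with no overlap. With fewer than 10 counts in both PC9 libraries, *TWIST1* passed the filter on low counts through its PC9OR libraries. Its fold changes and adjusted p-values are therefore given as a description. The fold was 4.03 and the log2 fold change 2.01 (SE 0.456, 95% confidence interval 0.84 to 3.18, edgeR QL adjusted p = 0.0274). The DESeq2 Wald test gave a log2 fold change of 2.01 with an adjusted p of 0.0558. Without PC9OR replicate 1 the edgeR QL adjusted p was 0.0854 and without PC9OR replicate 2 it was 0.178, with log2 fold changes of 2.22 and 1.77. Even after the increase, *TWIST1* RNA stayed low: in FPKM, which is scaled by length and so can be compared between genes, it was 0.595 ± 0.120 (SD, n = 2) in PC9OR cells, against 3.36 ± 0.233 (SD, n = 2) for *SNAI2*.

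*ZEB1* encodes a zinc finger and homeodomain repressor of epithelial genes (Entrez 6935, chr10:31607424-31818742, GRCh37, plus strand). It had 3.71 and 3.40 CPM in the PC9 libraries and 1.97 and 1.22 CPM in the PC9OR libraries. The groups did not overlap, yet the PC9OR replicates stood apart from each other, and the log2 fold change of -1.16 (SE 0.361, 95% confidence interval -2.08 to -0.23) had an edgeR QL adjusted p of 0.0589. It crossed the threshold in some other fits, with an adjusted p of 0.0404 in the edgeR QL test on genes with at least 10 counts in every library and 0.0485 in limma-trend on log2(FPKM + 1). Its lncRNA neighbor on the opposite strand, *ZEB1-AS1*, chosen after its values were seen, had 0.256 and 0.416 CPM in PC9 and 1.09 and 1.84 CPM in PC9OR cells. These were 6.23 and 12.3 expected counts in PC9 and 34.8 and 59.2 in PC9OR cells. Like *TWIST1*, *ZEB1-AS1* passed the filter on low counts through its PC9OR libraries, and its values are given as a description.

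RefSeq start-site windows of 300 bases, from 250 bases before to 50 after a start site on GRCh38.p14, were at hand for 4 of the 10 genes, *ZEB1*, *ZEB2*, *VIM* and *CDH2*, in 11 windows. They were searched for the E-box CAGGTG, the motif that SNAI and ZEB factors are known to bind, on both strands (CACCTG on the other). It was found in 2 of the 11 windows, both of *ZEB1*, which has 7 of them, and in 20.59% of all 35116 windows. The 4 matches are shown because *ZEB1* was the gene of an E-box factor whose own start sites held the motif, with the E-box in capitals and up to 12 bases on each side, 5′ to 3′ on the plus strand.
*ZEB1*, chr10:31318348-31318377, 57 bases before a start site: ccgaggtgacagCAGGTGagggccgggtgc
*ZEB1*, chr10:31318966-31318991, 242 bases before a second start site: ccccaccaCACCTGaggaaaactttt
*ZEB1*, chr10:31319119-31319148, 85 bases before the same start site: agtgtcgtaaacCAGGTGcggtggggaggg
*ZEB1*, chr10:31319237-31319265, 33 bases after the same start site: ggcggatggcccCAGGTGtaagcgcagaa
A match describes these letters only, and binding was not measured.

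*SNAI1* encodes SNAIL, the founding member of the family of *SNAI2*. It had 18.9 and 22.0 expected counts in the PC9 libraries and 8.07 and 32.3 in the PC9OR libraries, or 0.810, 0.763, 0.250 and 1.00 CPM. The lowest and the highest value both came from PC9OR cells. The log2 fold change of -0.33 had a 95% confidence interval from -2.18 to 1.52 (edgeR QL adjusted p = 0.740), and it was 0.35 without PC9OR replicate 1. With the PC9OR replicates this far apart, the test could not decide whether *SNAI1* changed.

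*ZEB2* encodes the paralog of *ZEB1*. It was listed in none of the 4 libraries and was given 0 counts, which allows up to 3 counts a library, or between 0.0936 and 0.128 CPM.

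The 5 transcription factor genes together reached 7.38 and 6.12 FPKM in the PC9 libraries and 4.36 and 4.44 FPKM in the PC9OR libraries. *SNAI2* held 87.1% and 86.0% of that sum in PC9 and 80.7% and 71.9% in PC9OR cells, while *TWIST1* went from 2.17% and 2.29% to 11.7% and 15.3%. The sum was lower in both PC9OR libraries, and its makeup leaned less on *SNAI2* and more on *TWIST1*. These are descriptions of the same values as above and were not tested on their own.

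Ratios within a library do not depend on how whole libraries were scaled, but a trend with transcript length, described further on, stays in them. *CDH1* (4815 bases) is longer than *ESRP1* (3698), *VIM* (2136) and *EPCAM* (1718). With offsets for length the log2 fold changes were -1.16 for *CDH1*, 0.15 for *ESRP1*, -0.16 for *VIM* and -0.17 for *EPCAM*. *CDH1* stood at 0.470 and 0.341 of the FPKM of *EPCAM* in the PC9 libraries and at 0.158 and 0.137 in the PC9OR libraries. Against *ESRP1*, *CDH1* was at 1.45 and 1.15 in PC9 and at 0.503 and 0.455 in PC9OR cells, so the order of these 2 genes was opposite in the 2 lines. Against *VIM*, *CDH1* was 16.2 and 9.65 times as high in PC9 and 4.67 and 5.02 times as high in PC9OR cells. By contrast, the FPKM of *EPCAM* over that of *ESRP1* was between 3.09 and 3.37 in every library.

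**Figure D3:**
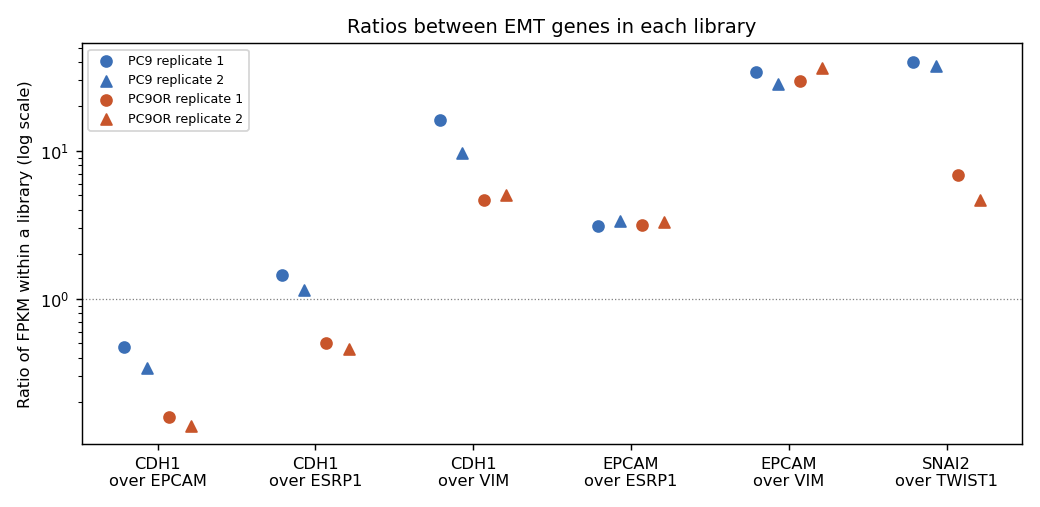
Ratios of FPKM between pairs of EMT genes within each library, on a log axis, PC9 in blue and PC9OR in orange. The 3 ratios with *CDH1* on top are lower in both PC9OR libraries, *EPCAM* over *ESRP1* and *EPCAM* over *VIM* overlap between the lines, and *SNAI2* over *TWIST1* goes from 40.2 and 37.6 in PC9 to 6.90 and 4.69 in PC9OR cells.

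In FPKM, the order of the EMT genes in PC9 cells was *EPCAM* (147 ± 1.75), *CDH1* (59.5 ± 14.1), *ESRP1* (45.5 ± 3.27), *SNAI2* (5.84 ± 0.827), *VIM* (4.71 ± 0.587), *ZEB1* (0.410 ± 0.0283), *SNAI1* (0.345 ± 0.0212) and *TWIST1* (0.15 ± 0.0141; SD, n = 2 for each). No neighbors in that order overlapped between libraries, but the gap between the means of *CDH1* and *ESRP1* was smaller than the SD of *CDH1*. In PC9OR cells the order was *EPCAM* (143 ± 4.99), *ESRP1* (43.96 ± 0.276), *CDH1* (21.0 ± 1.38), *VIM* (4.36 ± 0.502), *SNAI2* (3.36 ± 0.233), *TWIST1* (0.595 ± 0.120), *SNAI1* (0.270 ± 0.226) and *ZEB1* (0.18 ± 0.0566; SD, n = 2 for each). The ranges of *SNAI1* and *ZEB1* overlapped there. *CDH2* and then *ZEB2* came last in both lines.

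Genes with a similar pattern were ranked by the Euclidean distance between centred log2(CPM + 0.5) values over the 4 libraries, for the 3 tested EMT genes with the largest changes. Among the genes closest to *CDH1* were *PTPRJ* (distance 0.0261) and *PABPC4* (0.0413). *ZEB1* was closest to *H2AX* (0.0848), *NFATC4* (0.0865) and *TRIM3* (0.0956). *TWIST1* was closest to *SLC25A29* (0.0378), *SRGAP3* (0.0854) and *GAREM2* (0.0871), which were all under the 3-count limit in both PC9 libraries. With 4 libraries in 2 lines, many genes share a pattern, and the distances describe these libraries only.

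**Figure D4:**
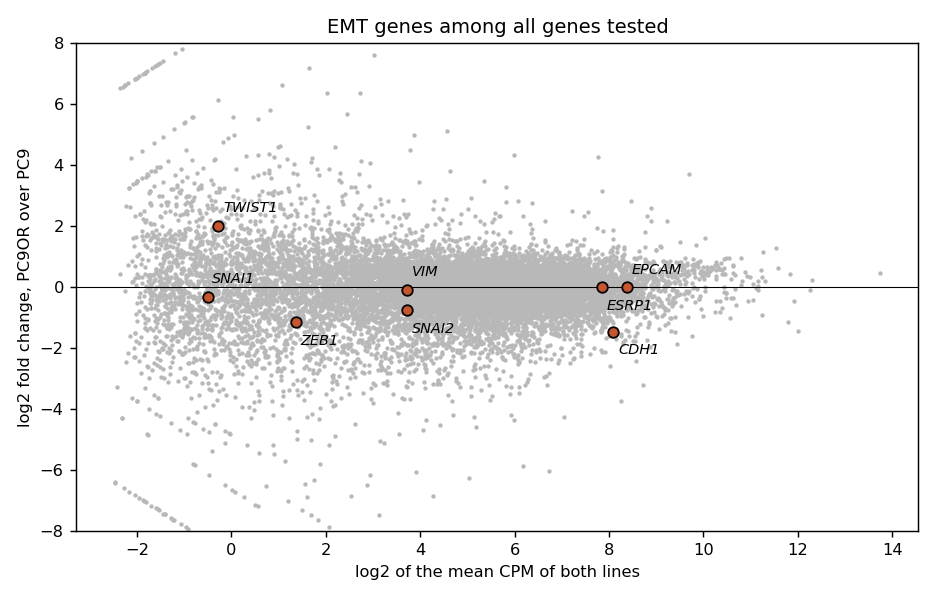
Log2 fold change of PC9OR over PC9 against the log2 of the mean CPM, for the genes tested (grey) with the 8 tested EMT genes in orange. The axis ends at 8 in either direction and leaves out 57 genes beyond it. *CDH1* lies at -1.46 among abundant genes, and *TWIST1* and *SNAI1* lie among genes of low level, where the grey points spread widely.

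The wider pathway was read from 8 written lists with 127 genes, of which 114 were tested. In PC9OR cells 15 of them rose (13.2%) and 36 fell (31.6%), beside 15.6% and 20.8% of all genes tested. With offsets for transcript length 21 rose and 29 fell, beside 2614 higher and 2389 lower of the 13148 genes tested. Transcript length moved with the difference between libraries. Taken over 11952 genes, whose values depend on one another, length had a rank correlation of -0.385 with the log2 difference of PC9OR minus PC9 and of -0.442 with that of PC9 replicate 2 minus replicate 1, while between the PC9OR replicates it was 0. The part of length in the fold changes above was tested only through these offsets. *CDH1* transcripts were 4815 bases long on average, and with the offsets its log2 fold change was -1.16 (edgeR QL adjusted p = 0.00341). That of *ZEB1*, at 6153 bases, was -0.74 (edgeR QL adjusted p = 0.154), while those of *SNAI2* (-0.85) and *TWIST1* (1.84) stayed past the threshold with edgeR QL adjusted p of 0.0167 and 0.0323. Some named list genes that did not pass below did so in another fit: *PRKCI*, *NT5E* and *TPM1* with the length offsets, *PTBP1* and *MAL2* with the DESeq2 Wald test and the replicate block, and *CDH3* with the DESeq2 Wald test. With the offsets the list medians given below went to -0.30 for the EMT transcription factors, -0.06 for the epithelial factors, -0.11 for the splicing factors, -0.13 for cadherins, catenins and nectins, and 0.38 for the mesenchymal genes.

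Of 12 tested transcription factor genes tied to EMT beyond the 5 above, 0 rose and 6 fell by the edgeR QL test, with a list median of -0.51. None was higher at an unadjusted p under 0.05 either (0 higher, 7 lower), and the DESeq2 Wald test called 0 higher and 7 lower. With the length offsets 1 was higher and 6 lower, beside 2614 higher and 2389 lower of all genes tested. The 1 higher was *TCF4*, named after its values were seen, with a log2 fold change of 1.07 (edgeR QL adjusted p = 0.0156) against 0.46 without the offsets (edgeR QL adjusted p = 0.205). *KLF8*, a Krüppel-like factor described as a repressor of *CDH1*, went from 22.8 ± 5.36 to 0.797 ± 0.244 CPM (SD, n = 2 for each), a log2 fold change of -4.83 (SE 0.3304, edgeR QL adjusted p = 0.00391). The other genes of this list that fell more than 2-fold were *RUNX2*, the osteoblast factor (log2 fold change -2.15), *SOX9*, a factor of progenitor cells and cartilage (-1.96), and *ETS1* (-1.61). The E-protein gene *TCF3* (log2 fold change -0.27) and *FOXQ1* (-0.58) did not pass the test. *FOXQ1* did pass with the length offsets (edgeR QL adjusted p = 0.0333), with the replicate block (edgeR QL adjusted p = 0.0234) and with the DESeq2 Wald test (adjusted p = 0.0338). The genes *TWIST2*, *FOXC2* and *GSC* were listed in no library.

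Among the 13 factors of epithelial identity, 1 rose, 4 fell and 8 did not pass, with a median of -0.14. The share called, 38.5%, was close to the 36.4% of all genes tested. *GATA3* (log2 fold change -2.56) and *KLF4* (-1.46) fell more than 2-fold. *FOXA2*, a forkhead factor of endoderm, had 0 counts in both PC9 libraries and 22 and 25 counts in the PC9OR libraries, and was at least 5.74-fold higher against 3 counts in a PC9 library. It was the 1 that rose, and it passed the filter on low counts through its PC9OR libraries, so its rise is given as a description. *GRHL2*, which maintains the expression of *CDH1* in epithelia, had 195 ± 18.1 CPM in PC9 and 188 ± 1.63 CPM in PC9OR cells (SD, n = 2 for each), a log2 fold change of -0.05. The epithelial factor *ELF3* did not pass either (-0.14). Of 8 splicing factors tied to the epithelial or mesenchymal state, 0 rose and 3 fell by the edgeR QL test, and none of the 3 by more than 2-fold. The 3 called are 37.5% of the 8, close to the 36.4% of all genes tested, and the median was -0.47. At an unadjusted p under 0.05 the edgeR QL test had 0 higher and 5 lower, and the DESeq2 Wald test called 0 higher and 5 lower. The counts over all genes to set beside these are given above with the EMT transcription factors. *QKI*, *HNRNPM* and *RBM47*, named after their values were seen, had log2 fold changes of -0.996, -0.67 and -0.49, and with the length offsets those of *QKI* and *RBM47* were -0.05 and -0.17 and no longer called. *PTBP1* (-0.45) and *SRSF1* (-0.01), the most abundant that did not pass, encode general splicing regulators.

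Of 14 tested genes of cadherins, catenins and nectins, 2 rose and 3 fell, with a median of -0.35. The share called, 35.7%, was close to the 36.4% of all genes tested. *CDH13*, a cadherin with a lipid anchor, rose from 2.80 ± 0.214 to 9.92 ± 1.38 CPM (SD, n = 2 for each; log2 fold change 1.82), while *CDH5*, the cadherin of endothelial junctions (-2.57), and the nectin gene *NECTIN1* (-1.996) fell. *CDH3*, which encodes P-cadherin (-0.31), and *VCL*, which encodes vinculin (-0.09), did not pass. *CTNNB1*, the gene of beta-catenin, had 89.9 and 92.2 FPKM in PC9 and 133 and 119 FPKM in PC9OR cells and rose by a log2 fold change of 0.51 (SE 0.111, edgeR QL adjusted p = 0.0246). *CTNNA1*, the gene of alpha-catenin, which ties the complex to actin, had 1.55 and 0.98 FPKM in PC9 and 0.5 and 0.86 FPKM in PC9OR cells. It was thus far below *CTNNB1* in every library, in both lines, and its log2 fold change of -0.86 did not pass (edgeR QL adjusted p = 0.134). The catenin gene *CTNND1* went the other way from *CTNNB1*, with a log2 fold change of -0.51 (edgeR QL adjusted p = 0.0368). With the length offsets it was -0.12 and no longer called (edgeR QL adjusted p = 0.384). These catenins were chosen after their values were seen.

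Of 19 tested genes of the epithelial surface and of cell polarity, 2 rose and 5 fell (36.8%, close to the 36.4% of all genes tested). Their median was -0.11. The length offsets turned that balance, with 5 higher, 4 lower and a median of 0.023. Over all genes tested that fit had 2614 higher, 2389 lower and a median of 0.08. *MUC1*, a mucin of the apical membrane, fell from 3.76 ± 1.198 to 0.594 ± 0.177 CPM (SD, n = 2 for each; log2 fold change -2.65, edgeR QL adjusted p = 0.0137). *MAL2* (0.43) and *PRKCI* (0.16), which act in apical sorting and polarity, did not pass.

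The 17 tested genes of the mesenchymal matrix and cytoskeleton moved in both directions, with 5 that rose, 4 that fell and a median of 0.11. The share called was 52.9%, beside 36.4% of all genes tested. *S100A4*, a calcium-binding protein used as a marker of fibroblasts, rose from 6.64 ± 1.30 to 74.5 ± 9.44 CPM (SD, n = 2 for each; log2 fold change 3.48, SE 0.197, edgeR QL adjusted p = 0.00303). The metalloproteinase gene *MMP9* rose by a log2 fold change of 3.87, the matrix gene *TNC* by 2.39 and the actin-binding *TAGLN* by 1.83. *LOXL2*, the gene of a collagen cross-linking enzyme, the hyaluronan receptor gene *CD44* and the TGF-beta-induced matrix gene *TGFBI* fell, with log2 fold changes of -2.13, -1.82 and -1.23. *NT5E* (0.29) and *TPM1* (-0.28) did not pass.

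In the TGF-beta pathway, which induces EMT in many epithelia, 3 of 17 genes rose, 8 fell and 6 did not pass, with a median of -0.37. The share called was 64.7%, beside 36.4% of all genes tested. The ligand *TGFB1* went from 23.8 ± 12.9 to 4.76 ± 0.724 CPM (SD, n = 2 for each; log2 fold change -2.32), whereas the ligand *TGFB3* rose from 1.25 ± 0.196 to 3.14 ± 0.107 CPM (SD, n = 2 for each; log2 fold change 1.33). The receptor gene *TGFBR2* fell (log2 fold change -1.23), as did the signal transducer gene *SMAD3* (-2.50), from 205 ± 57.7 to 36.2 ± 3.74 CPM (SD, n = 2 for each; edgeR QL adjusted p = 0.00533). The nuclear inhibitor gene *SKI* (-1.91) and *LTBP3*, which stores the latent ligand (-1.89), fell too. *SMAD2* (-0.37) and *TGIF1* (0.19) did not pass. With the length offsets the median of this list was 0.02, with 4 genes higher and 6 lower. Over all genes tested the median was 0.08 in that fit, with 2614 higher and 2389 lower.

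Of 14 cofactors of the EMT factors or regulators of their stability, 2 rose and 3 fell, with a median of -0.15 that turned to 0.24 with the length offsets. The share called, 35.7%, was close to the 36.4% of all genes tested. *GSK3B*, a kinase that marks SNAIL for degradation, fell by 1.30 on the log2 scale. The corepressor gene *CTBP1* (0.28) and the deacetylase gene *HDAC2* (-0.17) did not pass.

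**Figure D5:**
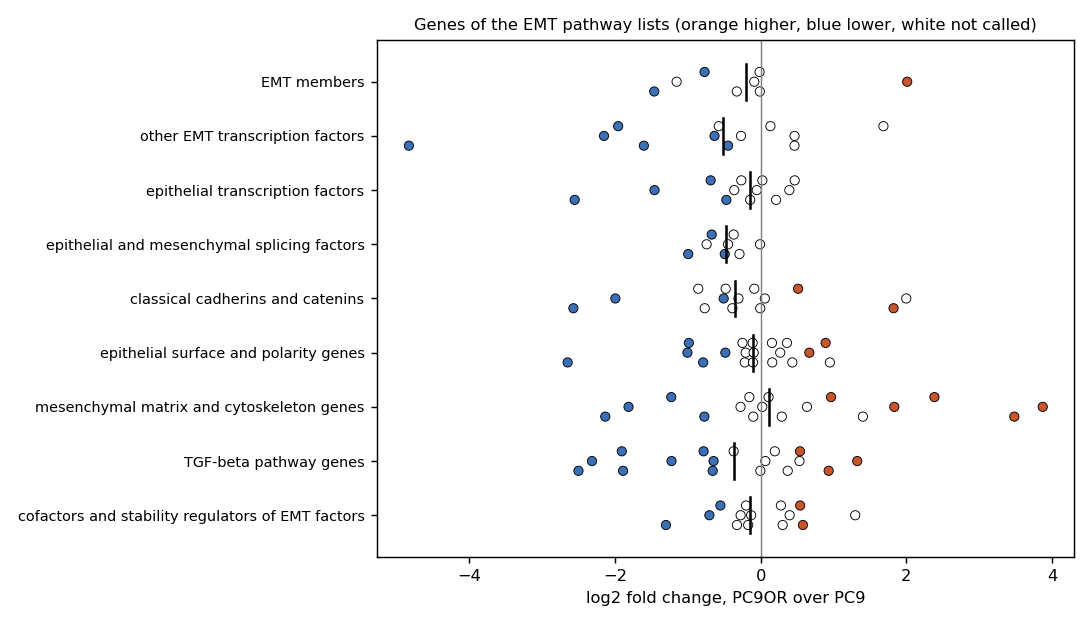
Log2 fold change of PC9OR over PC9 for the tested genes of the EMT list and the 8 pathway lists, with 1 point a gene and a black bar at the median of each list. Orange genes were called higher, blue genes lower and white genes were not called. *FOXA2*, with 0 counts in PC9, is not drawn. Each list but that of the 8 splicing factors, which all lie below 0, holds genes on both sides of 0, and *KLF8* and *MMP9* lie farthest out.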

How the data were processed

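The authors sequenced stranded TruSeq libraries of total RNA. Reads were filtered with SOAP (per the study's methods), and the submitters' processing notes name Bowtie2 2.2.5, RSEM 1.2.12 and GRCh37. Per the file headers, the deposited values are expected counts, which are estimated counts without normalization, FPKM, scaled by the authors for length and depth, and a transcript length weighted by isoform use. Only genes above 0 were listed, so the join across libraries filled in 0 counts elsewhere. RefSeq symbols matched 99.66% of the Entrez identifiers.

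After rounding, edgeR 4.0.16 under R 4.3.3 tested the expected counts (filterByExpr, TMM, glmQLFit, glmQLFTest). A gene was called at a Benjamini-Hochberg adjusted p under 0.05. The study used DEGseq, whose MA-plot-based model was rebuilt as an alternative beside DESeq2 1.42.0, limma 3.58.1 on FPKM, offsets for length (mgcv 1.9.3), a replicate block, other filters and each library left out. The scripts were checked on simulated counts with known changes.

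The EMT genes, the lists and the tests were chosen with earlier results of these data known. All 10 EMT genes are named. Of each list, the genes named are those called with more than 2-fold change, at most 8, and at most 2 abundant genes that were not called. Others are said to have been chosen after their values were seen. Some genes that this rule selects are not reported here.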

Additional observations from a re-analysis of the deposited data

How the results depend on the processing

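Where a value changed with the processing, the cause was not tested. The fall of *CDH1* stayed past an adjusted p under 0.05 in all 15 other fits, with log2 fold changes from -1.69 to -1.16. Under the stricter threshold of the study, no EMT gene, no list gene and no gene at all was called (0 in each direction, by the edgeR test, against 6653 at an unadjusted p under 0.05, 1735 by the DESeq2 Wald test and 2810 by the MA-plot-based model), which takes in *CDH1* (-1.46), *SNAI2* (-0.77) and *TWIST1* (2.01). *CDH1* passed that threshold by the DESeq2 Wald test (-1.48, adjusted p = 2.9e-12) and by the MA-plot-based model (-1.44). By that model alone, so did *TWIST1* (2.03, adjusted p = 1.41e-09) and *ZEB1* (-1.15, adjusted p = 5.17e-11). On simulated counts of 13148 genes with 200 changed, that model made 6683 false calls, against 14 by the edgeR QL test. The replicate spread in those counts was preset, the same for every gene, and not estimated from these libraries, so these numbers depend on it. Because the model does not use the spread between replicates, its calls carry little weight. *TWIST1* was also past the threshold no longer with the DESeq2 Wald test (2.01) and with the length offsets and the replicate block together (1.83), and was removed by the filter of at least 10 counts in every library. The EMT genes called higher were then 0 in each of these 3 fits. *ZEB1* was called by the MA-plot-based model (-1.15), by limma-trend on log2(FPKM + 1) (-0.26) and with at least 10 counts in every library (-1.15). The log2 fold change of *ESRP1* turned to 0.15 with the length offsets, with and without the block.
With 1 library left out, the log2 fold change ran from -0.92 to -0.64 for *SNAI2*, 1.77 to 2.22 for *TWIST1*, -0.23 to 0.0397 for *VIM*, -0.0645 to 0.037 for *EPCAM*, -0.0876 to 0.0324 for *ESRP1* and -1.64 to 0.35 for *SNAI1*. The EMT genes called ran from 0 to 1 higher and from 1 to 2 lower, the list genes from 5 to 22 higher and from 19 to 53 lower, and all genes from 540 to 3984 higher and from 1232 to 3978 lower.
The MA-plot-based model, which does not use the spread between replicates, called 5594 genes higher and 5459 lower, and 37 and 65 list genes. The length offsets with the replicate block called 28 list genes higher and 30 lower, beside 3080 and 2525 of all genes tested. Same-numbered libraries had deviations from the mean of their line that correlated at 0.07 across genes, and no source states a pairing. The replicate block alone gave 2593 genes higher and 2946 lower, a log2 fold change of -1.45 for *CDH1*, and changed the call of none of the 8 EMT genes tested. *CDH2* and *ZEB2* were at or under 3 counts in every library, so no change of theirs could be measured.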
